A study of Mus musculus with 8 samples.

Results

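The genes described are 9 collagen genes of the basement membrane and of network-forming matrix: Col4a1, Col4a2 and Col4a5 of type IV, Col6a1, Col6a2 and Col6a3 of type VI, Col8a1 of type VIII, and Col15a1 and Col18a1 of types XV and XVIII. They were taken by symbol from a table of cluster marker genes, in which all 9 had an entry, out of 3903 gene symbols with an entry. White preadipocytes came from the inguinal fat of C57BL/6 mice, either wild type (WT) or lacking both nucleosome-binding proteins HMGN1 and HMGN2 (Hmgn1-/- and Hmgn2-/-, DKO), taken at 8 to 12 weeks of age per the study's methods. WT and DKO preadipocytes at day 0 were not induced. WT and DKO cells at day 6 had been induced towards brown-like adipocytes with 0.5 μg/ml insulin, 5 μM dexamethasone, 0.5 mM IBMX, 1 nM T3 and 1 μM rosiglitazone, a medium given for 4 days and followed by insulin and T3 alone. Each of these 4 groups had 2 single-cell RNA samples, 8 in all. The labels do not say whether the samples of a group came from separate animals. Per the study's methods, cells were first plated on collagen-coated plates and then replated on a surface that is not named.

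Collagens are chains of repeated glycine triplets that wind into triple helices. Type IV collagen does not form fibrils but a sheet, the scaffold to which laminins, nidogens and perlecan attach in a basement membrane. Fat cells are each wrapped in such a membrane, and type VI collagen, a network of beaded filaments, lies close to it and is abundant in fat tissue. Type VIII is a short-chain collagen whose molecules assemble into hexagonal lattices, best known from vessel walls and the cornea, and types XV and XVIII sit at the border of the basement membrane, where XVIII gives rise to the fragment endostatin.

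The authors pooled the cells of all 8 samples, sorted them into 12 clusters numbered 0 to 11 and set each cluster against all other cells. Every value below is 1 such comparison. It holds a log2 fold change of the mean normalised level, which is listed from 0.25 upwards in size, and the percent of cells with the gene detected inside and outside the cluster. The values have no replicate, no genotype and no day, so no SD, no test and no DKO against WT comparison can be given, and the order of close values carries no error. Entries were also limited by p, since the largest unadjusted p listed was 0.00996. A gene without an entry in a cluster therefore missed either a minimum of fold change or detection or the limit on p, and a missing entry is neither a level of 0 nor a sign of no difference. Depth and cell numbers per sample are unknown from the table. Of 10 adipocyte markers 9 were higher in clusters 4 and 11, 6 in cluster 8 and 3 in cluster 6. Proliferation markers were higher in clusters 5, 6 and 9, with 7, 8 and 6 of 8. Of 8 preadipocyte markers 3 were higher in cluster 1, and 5 were lower in clusters 4 and 11. In clusters 4 and 10 the genes listed had a median detection of 10.8% and 8.1% of the cells, against 55.9% to 84.5% in the other clusters, and every value given for clusters 4 and 10 comes with this low detection, whose part in it was not tested.

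Col4a1 and Col4a2 are shown first by sequence, because they shared the sign in 10 of 10 clusters, the largest number of any pair of the 9 genes, and start back to back. In mm10, Col4a1 lies on chromosome 8 from 11198423 to 11312826 on the minus strand and Col4a2 from 11312805 to 11449287 on the plus strand, so that the gene records share 22 bases at their starts. The RefSeq start windows (GRCm38.p6, 250 bases before to 50 after the start) are chr8:11312777-11313076 for Col4a1 and chr8:11312555-11312854 for Col4a2. Each is written 5′ to 3′ on its own strand, and the capitals mark the 78 bases that both windows hold, read in opposite directions.
Col4a1: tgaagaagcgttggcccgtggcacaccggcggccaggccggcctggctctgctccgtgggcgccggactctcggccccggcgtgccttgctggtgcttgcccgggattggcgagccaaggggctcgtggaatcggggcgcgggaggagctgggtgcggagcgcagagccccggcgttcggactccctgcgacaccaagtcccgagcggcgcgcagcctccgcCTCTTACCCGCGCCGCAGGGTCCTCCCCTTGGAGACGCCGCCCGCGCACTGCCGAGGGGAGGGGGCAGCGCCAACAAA
Col4a2: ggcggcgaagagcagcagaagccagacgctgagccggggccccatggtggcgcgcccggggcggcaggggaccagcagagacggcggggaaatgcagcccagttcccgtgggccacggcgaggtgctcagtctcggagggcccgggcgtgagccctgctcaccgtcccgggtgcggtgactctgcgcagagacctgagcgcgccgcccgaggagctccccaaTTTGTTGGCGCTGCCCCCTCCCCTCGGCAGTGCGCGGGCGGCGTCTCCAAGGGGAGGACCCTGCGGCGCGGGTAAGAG

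Both windows were rich in G and C, with 74.0% and 73.7% against a median of 52.7% over 32851 windows. Both held CCAAT and GGGCGG on either strand, which 37.4% and 35.7% of all windows held. TATAAA, present in 13.6% of all windows, was found in 0 of the 11 windows of the 9 genes, and TGANTCA, the letters of an AP-1 site and present in 7.81% of all windows, in 1 of them, that of Col6a1. Both strands were searched, no motif contains another, and such matches describe the windows only.

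Of the type IV genes, Col4a1 and Col4a2 were highest in clusters 8, 2 and 6. By the authors' table, the log2 fold change of Col4a1, the chain that with Col4a2 makes the common type IV trimer, was 1.45, 1.41 and 0.95 in these clusters. It was lower in the 7 other clusters with an entry, least in cluster 11 (-0.35) and most in cluster 9 (-1.32). The entries of clusters 3, 0, 10, 5 and 1 were -0.92, -0.95, -0.98, -1.04 and -1.13. By the authors' adjusted p below 0.05, the entries of clusters 11, 3 and 0 would not be kept. Nothing was listed between -0.35 and 0.95. Fold changes under the listing minimum are left out, as are entries past the limit on p. This gap therefore does not show a split into a high set and a low set. Clusters 4 and 7 had no entry, and solved from the rest their cells together stood at -0.16 on the log2 scale relative to all cells.

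Nearly all cells held Col4a1, so the clusters differed in amount and little in detection. It was detected in 92.4% of all cells, and in 92.5% to 100% of the cells of every listed cluster except cluster 10, where it was found in 33.0% against 94.4% outside. In cluster 9, where its level was lowest, detection was 93.2% inside and 92.4% outside. Only 4 of its 10 entries had detection and level moving the same way.

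Col4a2, the partner chain, followed Col4a1 with smaller values. It was higher in clusters 8, 2 and 6 (0.94, 0.89 and 0.56), and its lowest value was again in cluster 9 (-0.78). The remaining entries lay between -0.53 in cluster 5 and -0.37 in cluster 3. The sign was the same as for Col4a1 in 10 of 10 clusters with entries for both, and across these 10 clusters Pearson's r was 0.98. Col4a1 had the larger value in size in 9 of the 10, by a median of 1.84 times, and cluster 11 was the exception, with -0.49 for Col4a2. Col4a2 was detected in 86.8% of all cells, from 23.8% in cluster 10 to 99.7% in cluster 6. Clusters are each compared with the same pool of cells, so the points of such a correlation are not independent.

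Col4a5 (chromosome X, 141475385 to 141689234, plus strand), a chain of the less common type IV trimers, had the opposite sign to Col4a1 in clusters 2 and 8, with small values, and no entry in cluster 6. It was found in 17.9% of all cells but 2.6% and 1.5% of those in clusters 2 and 8, where its level differed by -0.25 on the log2 scale in both, just past the listing minimum and not kept by the authors' adjusted p below 0.05. In cluster 4 the share was 0.1% (-0.27). The signs also differed in cluster 10. The single higher value, 0.25 in cluster 10, came with detection in 2.8% of the cells against 18.4% outside, and cluster 10 is a cluster of low detection. Over the 8 clusters without an entry, 25.1% of the cells held the gene.

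**Figure D1:**
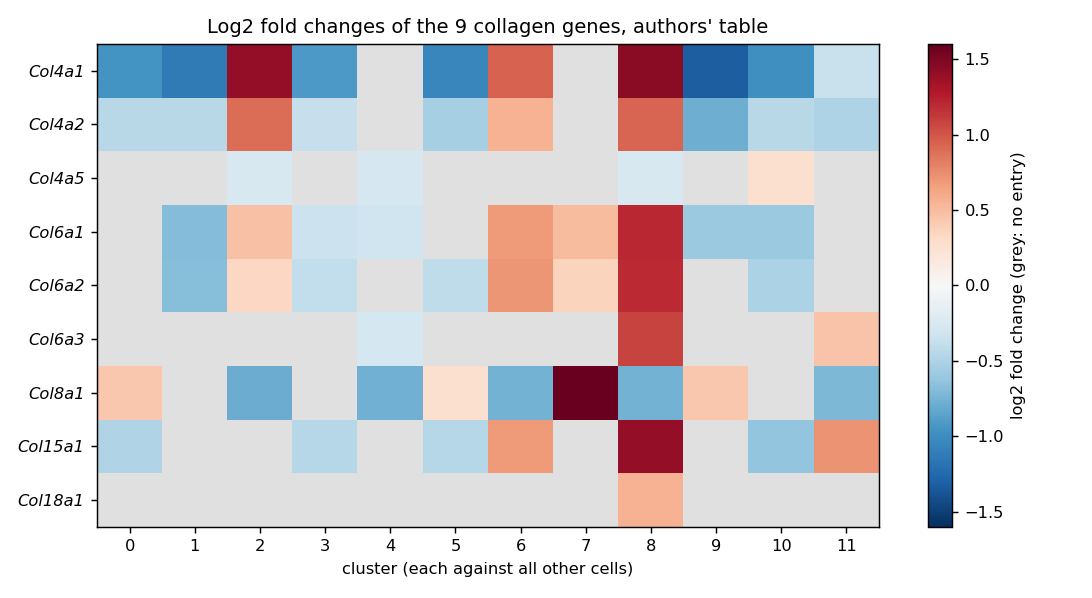
Log2 fold changes of the 9 collagen genes (rows) in clusters 0 to 11 (columns), each cluster against all other cells, from the authors' table, with red for higher, blue for lower and grey for no entry. Col4a1, Col4a2, Col6a1 and Col6a2 are red in clusters 2, 6 and 8, where Col8a1 is blue.

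Type VI collagen was highest in cluster 8 among the clusters with an entry. Its chains Col6a1 and Col6a2 (chromosome 10, 76708792 to 76726168 and 76595762 to 76623630, both minus strand, 85161 bases apart) are made from neighbouring genes, and Col6a3 (chromosome 1, 90765923 to 90843971, minus strand) supplies the long chain. In cluster 8 the authors' table gave 1.21 for Col6a1, 1.19 for Col6a2 and 1.08 for Col6a3. The 3 chains of the trimer were thus within 0.13 of each other there.

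Clusters 6, 7 and 2 came next, with 0.68, 0.51 and 0.47 for Col6a1 and 0.70, 0.36 and 0.33 for Col6a2. Both were lowest in cluster 1, at -0.70 and -0.68. By the authors' adjusted p below 0.05, the entries of clusters 1 and 2 and that of Col6a1 in cluster 6 would not be kept. Those of cluster 7 and that of Col6a2 in cluster 6 would be. In cluster 10, a cluster of low detection, Col6a1 and Col6a2 stood at -0.60 and -0.51, with detection in 16.6% and 10.1% of the cells. All 7 clusters with entries for both genes had the same sign, the largest difference between the genes was 0.15, and Pearson's r was 0.99. In cluster 7 Col6a1 and Col6a2 were listed as higher, while Col6a3, Col4a1 and Col4a2 had no entry and cannot be set against them.

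The type VI chains did not have equal numbers of entries. Col6a1 was detected in 83.4% of all cells, Col6a2 in 69.0% and Col6a3 in 69.2%. Col6a3 had only 3 entries, against 9 for Col6a1 and 8 for Col6a2. It was higher in cluster 11 (0.45, detected in 91.2% of the cells against 68.9%), where neither of the other chains was listed, and lower in cluster 4 (-0.28, 21.7% against 74.3%). The cluster 11 entry would not be kept by the authors' adjusted p below 0.05. In the 9 clusters without an entry 72.6% of the cells together held Col6a3, and their level was -0.09 on the log2 scale relative to all cells.

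**Figure D2:**
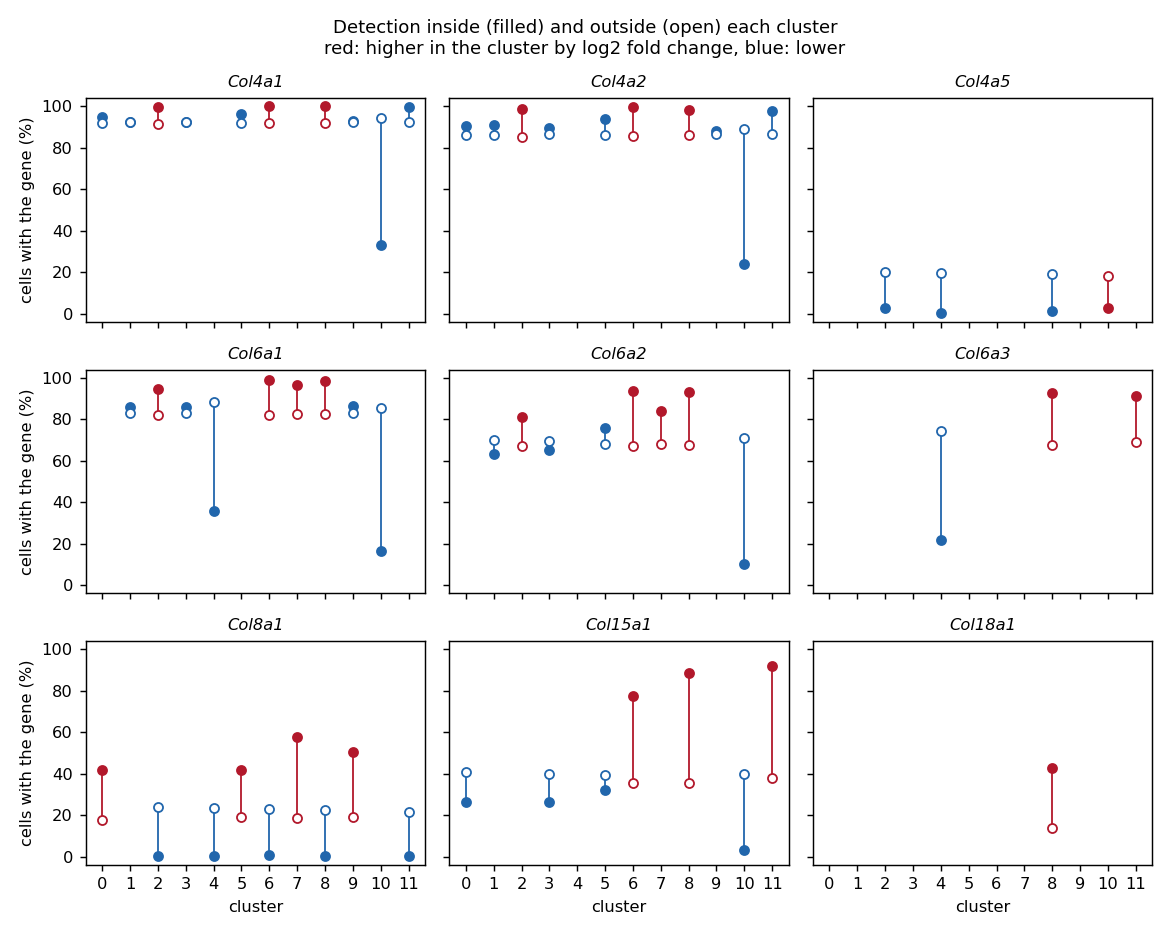
Percent of cells with each of the 9 genes detected inside a cluster (filled points) and in all other cells (open points), by cluster, for the entries of the authors' table, with red where the log2 fold change was higher and blue where it was lower. Col8a1 is at or under 0.7% in clusters 2, 4, 6, 8 and 11, while Col4a1 exceeds 92% everywhere it is listed except in cluster 10.

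Of the collagens at the membrane border, type XV also had its largest listed value in cluster 8, and type XVIII was listed only there. Col15a1 (chromosome 4, 47208161 to 47313167, plus strand) had log2 fold changes of 1.41, 0.72 and 0.68 in clusters 8, 11 and 6. It was found in 88.8%, 92.1% and 77.3% of the cells of these clusters, against 35.4%, 37.8% and 35.5% outside. Unlike Col4a1 and Col4a2, it was thus set apart by detection as much as by level, and detection moved with the level in 7 of its 7 entries. It was lower in clusters 5, 3 and 0 (-0.45, -0.46 and -0.48) and in cluster 10 (-0.63, with 3.3% of the cells positive). In cluster 11 it was thus higher where Col4a1 and Col4a2 were lower. Of these 2 lower entries, that of Col4a1 would not be kept by the authors' adjusted p below 0.05.

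Col18a1 (chromosome 10, 77052178 to 77166548, minus strand) had 1 entry. It was higher in cluster 8 at 0.56, with detection in 42.6% of the cells against 13.6% of all others. Over all cells it was detected in 15.3%, the lowest of the 9 genes. Its other 11 clusters had no entry, so no order can be given among them.

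Col8a1 (chromosome 16, 57624258 to 57754737, minus strand) was nearly absent from the cells of 5 clusters. Clusters 2, 4, 6, 8 and 11 had 0.3%, 0.2%, 0.7%, 0.1% and 0.4% of cells with the gene. The 3 clusters that led for Col4a1 and Col4a2 are among these 5, as are both clusters with 9 of 10 adipocyte markers higher. In contrast, 57.7% of the cells of cluster 7, 50.4% of cluster 9 and 41.8% of clusters 0 and 5 held the gene, against 17.5% to 19.2% outside. Its log2 fold change was 1.58 in cluster 7, the largest of the 61 entries of the 9 genes, and 0.44, 0.43 and 0.26 in clusters 0, 9 and 5. The lower values, from -0.80 in cluster 2 to -0.72 in cluster 11, are close together because a pseudocount of 1 bounds the fold change of a gene that is near 0.

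That bound allowed the level of Col8a1 to be solved. With the level taken as 0 in the 5 clusters with detection at or under 1%, its mean over all cells was 0.642 normalised counts per 10000, and the 5 clusters gave 0.633 to 0.653. The mean was 3.34 in cluster 7, and 1.17, 1.12 and 0.930 in clusters 9, 0 and 5. Clusters 1, 3 and 10, which had no entry, stood at 0.402 as a group. Per cell with the gene detected this came to 5.79 in cluster 7 and 2.23 to 2.67 in clusters 0, 5 and 9. Cluster 7 therefore stood apart in the amount per positive cell as well as in the share of positive cells.

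Col8a1 and Col4a1 had opposite signs in 6 of the 7 clusters with entries for both. Col4a1 was higher and Col8a1 lower in clusters 2, 6 and 8, and the reverse held in clusters 0, 5 and 9. Both were lower in cluster 11. With the authors' adjusted p below 0.05, both genes would be kept in clusters 2, 6 and 8. In cluster 0 Col4a1 would not be kept, nor would Col8a1 in clusters 5 and 9, nor either gene in cluster 11. The value of Col8a1 in cluster 5 (0.26) is also just past the listing minimum. Against Col15a1 the sign of Col8a1 was opposite in 5 of 5 shared clusters, and against Col6a1 in 4 of 6, with clusters 4 and 7 as the exceptions. By the same adjusted p, both Col8a1 and Col15a1 would be kept only in clusters 6 and 8. Among the opposite signs with Col6a1, both genes would be kept only in cluster 8.

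The counts of genes per cluster were read against all 3903 genes with an entry. Of the 9 collagen genes, 7 were higher in cluster 8, where 9.45% of all genes were listed as higher. Cluster 6 had 5 (18.1% of all genes), cluster 2 had 4 (9.1%) and cluster 7 had 3 (9.68%). The count was 2 in cluster 11 (25.6%). A single gene was higher in clusters 0, 5, 9 and 10, where the share of all genes was 12.5%, 19.8%, 18.7% and 6.17%. In clusters 1, 3 and 4, 0 were higher, where 450, 247 and 544 of the 3903 genes were. The share of the 9 genes was thus above that of all genes in clusters 8, 6, 2 and 7 and, with a single gene, in cluster 10. It was below that of all genes in clusters 0, 1, 3, 4, 5, 9 and 11. In clusters 0 and 11 the counts of 1 and 2 were near the share of all genes. With the authors' adjusted p below 0.05, the counts in clusters 6 and 2 were 3 and 2. In cluster 8 the median log2 fold change was 1.08 over the 9 genes and -0.37 over all 1126 genes listed there.

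Lower values were spread over more clusters. The number of the 9 genes listed as lower was 5 in cluster 3, where 4.61% of all genes were. Cluster 10 had 5 (12.2%), cluster 1 had 4 (7.15%), cluster 5 had 4 (7.33%), and clusters 0 and 9 had 3 (5.33% in each). It was 4 in cluster 4 (39.1%) and 3 in cluster 11 (38.1%), the clusters with the largest shares of all genes lower, and these counts were near the share of all genes. Cluster 2 (19.9%) and cluster 8 (19.4%) held 2 each, Col4a5 and Col8a1, and cluster 6 (18.2%) held Col8a1 alone. The 9 genes had a median of 8 entries each, against 2 over all genes, so a count above the background is partly a count of genes that are listed often. By the authors' adjusted p below 0.05, which treats cells as replicates, 33 of the 61 entries would be kept, and in clusters 0, 1, 3, 5 and 9 at most 1 lower entry of each would be. The lower values of Col4a1 in clusters 0 and 3 are among those not kept.

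**Figure D3:**
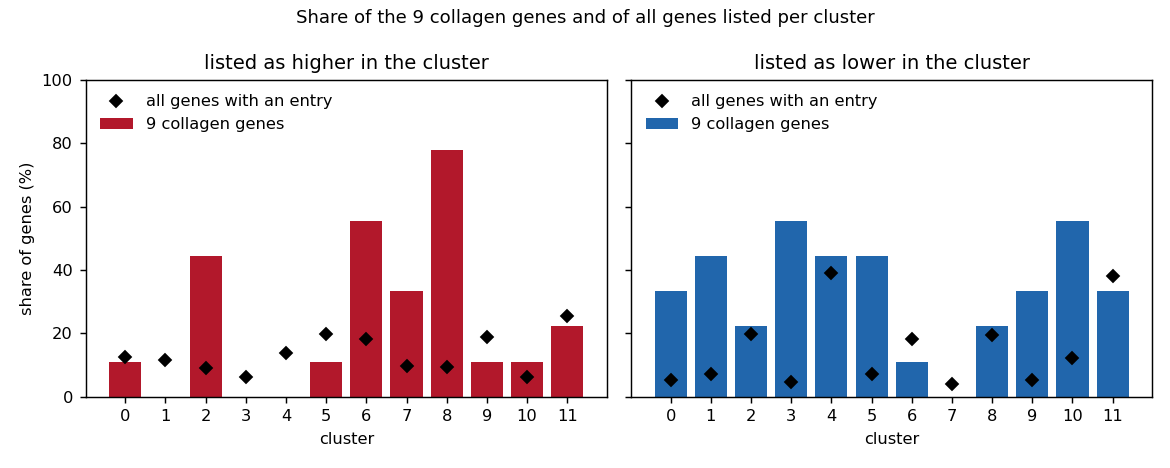
Percent of the 9 collagen genes (bars) and of all 3903 genes with an entry (diamonds) that the authors' table lists as higher (left) or lower (right) in each cluster. The bar for higher genes reaches 7 of 9 in cluster 8, where 9.45% of all genes were higher.

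Clusters with the same kind of marker differed in these collagens. In clusters 6, 5 and 9, where proliferation markers were higher, Col4a1 was 0.95, -1.04 and -1.32, and Col8a1 was -0.76, 0.26 and 0.43. Among the 3 clusters with at least 6 adipocyte markers higher, Col4a1 was 1.45 in cluster 8, -0.35 in cluster 11 and not listed in cluster 4. The cell cycle markers thus did not go with Col4a1 in every cluster. For the adipocyte markers this rests on the cluster 11 entry, which the authors' adjusted p below 0.05 would not keep. In cluster 6, Egfl7, 1 of 6 endothelial markers, was also higher (0.27, detected in 46.3% of the cells against 14.5%), while the other 5, Pecam1 and Cdh5 among them, had no entry anywhere, and the authors had removed endothelial cells. Of 6 mural markers, Abcc9 was higher in cluster 7 (0.38), and Pdgfrb was higher in clusters 1 and 3 and lower in clusters 2, 4, 8 and 11. The part of these cells in the collagen values was not tested. The immune and glial lists, of 6 and 5 genes, had 0 entries.

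The fibrillar collagens, the rope-forming types of the interstitial matrix, took another course. Of 11 such genes 8 had an entry. In cluster 8, 5 of the 11 were lower and 1 higher, where 19.4% of all genes were lower. Of the 1126 genes listed there, 757 were lower. Col1a1 and Col1a2, the chains of type I, were -2.03 and -2.26. In cluster 1 the order was reversed, since 5 of the 11 were higher and 1 lower, where 450 of all 3903 genes were higher. Col1a1 was 1.02, Col1a2 1.15 and Col3a1 of type III 1.01, while 4 network collagen genes were lower. In cluster 2 the fibrillar chains split, with 0.52 for Col3a1 and -0.70 and -1.10 for Col1a1 and Col1a2.

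In cluster 11 the fold changes of the type I and III chains were far below those of the network genes listed. Col1a2 was -4.35, Col1a1 -4.09 and Col3a1 -3.01. Of the 11 fibrillar genes 6 were lower and 0 higher, where 38.1% of all genes were lower. Of the 2486 genes listed there, 1488 were lower. Of the fibrillar genes listed there, Col11a1 had the smallest value in size (-0.49), close to that of Col4a2. The network genes there ranged from -0.72 for Col8a1 to 0.72 for Col15a1. Col8a1 was found in 0.4% of these cells and the pseudocount bounds its value, so its fall cannot be ranked against the others. Col1a1 was still detected in 91.9% of the cells. Col5a3, a type V chain that like Col11a1 is named here after its values were seen, had the sign of Col4a1 in clusters 8, 2 and 6, at 1.35, 0.87 and 0.71. Without replicates none of these differences was tested.

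**Figure D4:**
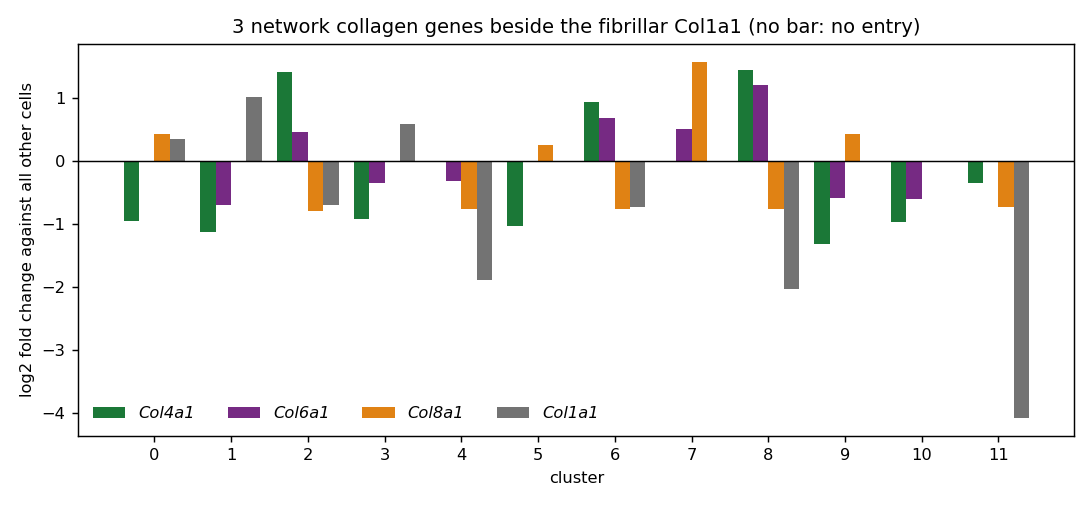
Log2 fold changes against all other cells for Col4a1, Col6a1, Col8a1 and the fibrillar Col1a1 by cluster, from the authors' table, where a missing bar is a missing entry. Col1a1 reaches -4.09 in cluster 11, and in cluster 8 it points down at -2.03 while Col4a1 points up at 1.45.

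The other genes of the basement membrane were read from a list. Of 11 laminin genes, the cross-shaped partners of the type IV sheet, 4 had an entry, and in cluster 8 Lamb1 (1.28) and Lamc1 (0.86) were higher and Lamb2 (-0.45) lower. In clusters 5, 9 and 10, 3, 2 and 3 of the 11 laminin genes were lower and 0 higher. The share of all genes lower there was 7.33%, 5.33% and 12.2%. In cluster 11 the signs differed, with 0.34 for Lamb1 and -0.35 for Col4a1, but that Col4a1 entry would not be kept by the authors' adjusted p below 0.05. Of 12 linkers and proteoglycans, 9 had an entry. Nid2, a nidogen that ties laminin to type IV collagen, was 1.28 in cluster 2 and 0.59 in cluster 6, was not listed in cluster 8, and was lower in the 7 other clusters with an entry, from -0.48 to -0.74. Nid1, the other nidogen, named here after its values were seen, was 0.57, 0.52 and 0.28 in clusters 8, 2 and 6. It was also higher in cluster 7 (0.34) and lower in clusters 1, 4, 5, 9, 10 and 11. Sparc and Fbln2, a collagen-binding glycoprotein and a fibulin, went with the fibrillar genes instead, at -3.17 and -3.35 in cluster 11 and 0.89 and 0.81 in cluster 1. Of 12 other basement membrane or network collagens only Col28a1 was listed, higher in cluster 1 (0.36) and lower in clusters 2, 4, 6, 8 and 11, the same 5 clusters in which Col8a1 was lower.

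Of 21 genes that fold and modify collagen chains 18 had an entry. In cluster 8, 7 were listed and 6 of the 21 were lower, where 19.4% of all genes were, among them the collagen chaperone Serpinh1 at -0.95. In cluster 11 all 18 listed of the 21 were lower, where 38.1% of all genes were. Lox, the crosslinking oxidase, was -2.82 there and Serpinh1 -1.87. In cluster 2, 6 of the 21 were higher and 2 lower, where 9.1% of all genes were higher. Serpinh1 was -0.84 there. Plod2, a lysyl hydroxylase, had its largest value in cluster 7 (1.52), where Col8a1 was highest too.

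The genes most like each collagen were sought among genes listed in every cluster that lists it. Vcan, a large proteoglycan, had the highest Pearson's r with Col4a1 (0.98 over 10 clusters, 30 candidates), with 1.47, 1.32 and 1.20 in clusters 2, 8 and 6, followed by Col4a2 and by Mt1 (0.91). For Col4a2 the order was Col4a1, Vcan (0.97) and Mt1 (0.85). For Col15a1 it was Zbtb16 (0.99 over 7 clusters, 56 candidates), Btg1 (0.98) and Peg3 (0.97), and for Col8a1 Dkk2 (0.96 over 9 clusters, 48 candidates), Asap1 (0.95) and 2310022B05Rik (0.95). Col6a1 had no close match among 12 candidates, with Car3, Mt1 and Mt2 at 0.60. Col6a2 was not a candidate, as it has no entry in clusters 4 and 9. For Col6a2 the order was Fabp4 (0.97 over 8 clusters, 17 candidates), Car3 (0.95) and Folh1 (0.79). The signs of Fabp4 and Col6a2 still differed in clusters 2 (-0.88 against 0.33) and 7 (-1.15 against 0.36). These matches do not set the chains apart, whose r with each other was 0.99 over 7 clusters. Only Col6a1 is listed in cluster 4 (-0.32), where Fabp4 was 3.08. Few genes are listed in so many clusters, so the candidates are a small and highly variable set.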

How the data were processed

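Single-cell RNA of cultured white preadipocytes was measured in 8 samples, and groups were taken from the sample labels. Per the study's methods and the submitters' processing notes, the authors mapped reads to mm10 with Cell Ranger 6.0.0, equalized depth between captures, filtered and log-normalized cells in Seurat to a total of 10000, removed immune, glial and endothelial cells, and ran MAST for every cluster. Removal of doublets is not given in the sources used here, and doublets could not be sought in a table without cells. The authors deposited log2 fold changes, a detection fraction inside each cluster, a detection fraction outside it, and p-values over cells with their adjusted p-values. No value belongs to a sample, and the number of columns of per-sample values left unused is 0. The columns are the authors' own cluster comparison and were used because they are the only values, as a description.

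Values were computed in Python 3.11.15 with pandas 2.3.3, scipy 1.17.1 and numpy 2.4.6, drawn with matplotlib 3.10.9, and the scripts were tested on simulated data. Of 13337 entries, those with a log2 fold change of at least 0.25 in size, which is every entry, counted as higher or lower. Cluster shares were solved by least squares from the detection of the 10 genes listed in all 12 clusters, as detection over all cells must be equal from each cluster. For the 9 genes it was, within 0.080 percentage points. Levels relative to all cells used Seurat's default pseudocount of 1, with which share-weighted levels summed to 0.997 to 1.00 where 1 is required. Levels and detection in clusters without an entry were obtained by subtraction. Gene positions are from GENCODE M21 (mm10), start windows from RefSeq (GRCm38.p6), which held 11 windows for all 9 genes.

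The members and gene lists were chosen with earlier results of these data known. Named were the 9 genes, the 3 genes of each list with the largest log2 fold change in size, and the 3 genes most correlated with each collagen listed in at least 6 clusters. Genes outside this rule are marked, and markers and examples from lists are otherwise given as counts. Alternatives were other minimums of fold change (0.5 and 1) and detection (0.25), the authors' adjusted p below 0.05, detection moving with level, other orders of clusters and another gene set for the shares.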

Additional observations from a re-analysis of the deposited data

How the results depend on the processing

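No paired analysis was possible because no column belongs to a single sample, and for that reason no replicate could be left out. The counts of the 9 genes per cluster depended on the minimum, by construction. With only log2 fold changes of 0.5 or more in size, the genes higher fell to 0 in clusters 0, 5, 9 and 10, to 1 in cluster 11 and to 2 in cluster 2, and those lower to 1 in clusters 0, 2, 3, 4, 8 and 11 and to 2 in cluster 5. At a minimum of 1, 0 were higher in clusters 0, 5, 6, 9, 10 and 11 and 1 in clusters 2 and 7, and 0 were lower in clusters 0, 2, 3, 4, 6, 8, 10 and 11 and 1 in clusters 1, 5 and 9. A detection minimum of 0.25 left 0 higher in cluster 10, 0 lower in clusters 2, 6 and 8 and 2 lower in cluster 4. With the authors' adjusted p below 0.05, 0 were higher in clusters 5 and 9, 1 in cluster 11, 2 in cluster 2 and 3 in cluster 6, and 0 were lower in cluster 0, 1 in clusters 1, 2, 3, 5, 8, 9 and 11 and 2 in cluster 4. With detection moving in the same direction, 0 were higher in cluster 10 and 0 lower in cluster 9, 1 lower in clusters 0, 1, 5 and 11 and 2 in cluster 3. The 7 genes higher in cluster 8 stayed within 1.5 times under each of these.

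By the difference of detection, the leading cluster became 2 for Col4a1, 6 for Col4a2, Col6a1 and Col6a2 and 11 for Col15a1, and by detection inside the cluster 6 for Col4a1, Col4a2, Col6a1 and Col6a2 and 11 for Col15a1. Where nearly all cells hold a gene, detection leaves little room for an order. Without clusters 4 and 10 the leading entry of Col4a5 was cluster 2, where it was lower. Shares and detection over all cells stayed within 0.2 percentage points with all 2692 genes listed in at least 2 clusters. The cells and reads behind each value are unknown, so what depth limits was not measured.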

Other observations

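Receptors and proteases of these collagens showed a further pattern. Of 16 receptor genes 7 had an entry. Itgb1 and Mmp3 also stand in the list of preadipocyte markers. Itgb1, the shared beta chain of the collagen and laminin integrins, was higher in cluster 0 (0.71), cluster 5 (0.61), cluster 9 (0.39) and cluster 1 (0.33), and lower in clusters 2, 4, 6, 8 and 11, from -0.82 in cluster 6 to -1.50 in cluster 11. These are the 5 clusters in which Col8a1 was found in at most 0.7% of the cells. In clusters 2, 6 and 8 Col4a1 and Col4a2 were thus higher and Itgb1 lower. Ddr2, a receptor tyrosine kinase for collagen, was 0.29 in cluster 2 and -0.94 in cluster 11, and Antxr1, which binds type VI collagen, was 0.48 in cluster 3 and -0.56 in cluster 11. In cluster 11, 6 of the 16 receptor genes were listed and 5 of the 16 were lower, where 38.1% of all genes were. The 1 higher was Itga6, named here after its values were seen (0.48, detected in 53.1% of the cells against 3%).

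Of 8 protease genes 7 had an entry. In cluster 3, 5 of the 8 were higher and 0 lower, where 247 of all 3903 genes were higher. Mmp2, the gelatinase that cuts type IV collagen, was 1.22, Mmp3 was 1.11 and Mmp14, which activates Mmp2, was 0.60. The same cluster had 5 of the 9 collagen genes lower. In cluster 11, 7 of the 8 protease genes were lower, where 38.1% of all genes were. Mmp2 was -1.70, Mmp14 -1.72 and Mmp3 -2.58. In cluster 2, 2 of the 8 protease genes were higher and 0 lower, where 9.1% of all genes were higher. Mmp2 (0.32) was among them, together with Col4a1 and Col4a2.

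Col4a5 was read on the scale of levels as Col8a1 was, from cluster 4 alone, where 0.1% of the cells held it. Its mean over all cells was 0.188 normalised counts per 10000 and 0.409 in cluster 10. Per cell with the gene detected this was 1.05 over all cells and 14.6 in cluster 10, whose listed genes had a median detection of 8.1%. The part of the low detection in that value was not tested. No other cluster listed Col4a5 as higher.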
